A study of Rattus norvegicus with 4 samples.

Results

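The genes studied here encode the nuclear part of the oxidative phosphorylation machinery of rat mitochondria. They were taken by name, as every gene whose symbol starts with Nduf, Uqcr or Atp5, is Sdha, Sdhb, Sdhc, Sdhd, Cyc1 or Cycs, or is Cox followed by a digit from 4 to 8. Of 14485 gene names with values, 91 met this rule, 39 of them in complex I, 4 in complex II, 8 in complex III, 15 in complex IV and 15 in complex V. Cycs, the gene of cytochrome c, stood alone, and 9 of the 91 carry a matching name without encoding a subunit.

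RNA sequencing was applied to eye and to retina. The rats were wild-type animals of the Long Evans strain, which is pigmented, and each library holds RNA pooled from 5 of them. By their labels the 4 samples are 2 technical replicates per tissue, and 1 column of values per tissue was analysed, called its library here. No source used here gives the age or sex of the rats. The tissue of a sample was read from its title and tissue label, since the description field speaks of retina mRNA for all 4. With 1 library per tissue, differences below have no replicate check, carry no p-value and describe these libraries.

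Values are taken as RPKM, reads scaled by gene length and by the library total, a unit inferred from the values. The totals that fit them were 28071917 reads for eye and 51944762 for retina. Whole reads were recovered from them as the smallest that fit, so those of some genes can be a fraction of the true number. The exact 95% interval of a ratio given below rests on these reads and covers counting error only. A gene is called higher or lower where the values, with 0.1 added to each, differed at least 2-fold, among the 13259 genes that reached 1 in eye, in retina or in both. Of the 91 genes, 90 passed this minimum, and Cox7a2 (0.372 in eye and 0.643 in retina) did not.

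Retina forms part of the eye, so rod markers were looked for in both libraries and other eye tissues in the eye library. All 7 rod photoreceptor markers with values were lower in the eye library, between 1.73-fold and 2.17-fold, with 3 called. The summed values of 16 skeletal muscle markers were 3911 in eye and 34.1 in retina, and those of 18 lens markers 182976 and 1972. In the eye library the lens markers held 35.0% of the summed value of all tested and untested genes. In bulk tissue, more cells of a type and more RNA per cell cannot be told apart.

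Oxidative phosphorylation couples the oxidation of NADH and succinate to ATP synthesis across the inner mitochondrial membrane. Complexes I and II pass electrons to ubiquinone, complex III passes them on to cytochrome c, complex IV hands them to oxygen, and complexes I, III and IV pump protons that drive the ATP synthase, complex V. Some subunits are encoded in mitochondrial DNA, and those are not analysed here. The retina is known for its high use of oxygen, with mitochondria packed in the inner segments of photoreceptors, and fibres of the eye muscles are rich in mitochondria too.

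Most of these genes had their higher value in eye, by a modest ratio. The eye value was the higher for 78 of 90 genes, against 49.3% of all tested genes, and the median log2 ratio was 0.58, against -0.01 for all tested genes. Of the 90, 15 (against a background of 17.8% of all tested genes) were at least 2-fold higher in eye and 0 at least 2-fold lower (background 7.95%). At a fold of 1.5, 44 were higher, against 26.6% of all tested genes. The share called at 2-fold was thus close to that of all genes, while the direction was uneven.

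Counting error was small beside most of these ratios. For 77 of the 89 genes with recovered reads the interval of the ratio lay above 1, for 7 it lay below 1 and for 5 it spanned 1. Among all tested genes with reads, 41.4% of the intervals lay above 1 and 42.1% below. The tested genes of the list had a median of 1651 recovered reads in eye and 1995 in retina.

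The direction depended on how the libraries were scaled. All tested genes summed to 1.56 times as much in eye as in retina, and these genes to 1.41 times as much, 10612 against 7550. They held 2.03% of the summed value in eye and 2.25% in retina. With the summed values set equal, which moved every log2 ratio by -0.64, 40 of the 90 genes had the higher value in eye, against 25.4% of all tested genes. Of the 90, 2 were then called higher and 2 lower, against 11.5% and 31.9% of all tested genes. With totals that leave out the lens markers 86 of 90 had the higher value in eye, against 58.7% of all tested genes. Of the 90, 25 were then called higher, against 21.2% of all tested genes. The lens reads left out were the smallest that fit, and 18 of 26 listed lens markers had values. The shift of this scaling may therefore be too small. The median relative to all tested genes could hardly move with the scaling, which shifts all log2 ratios nearly alike.

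**Figure D1:**
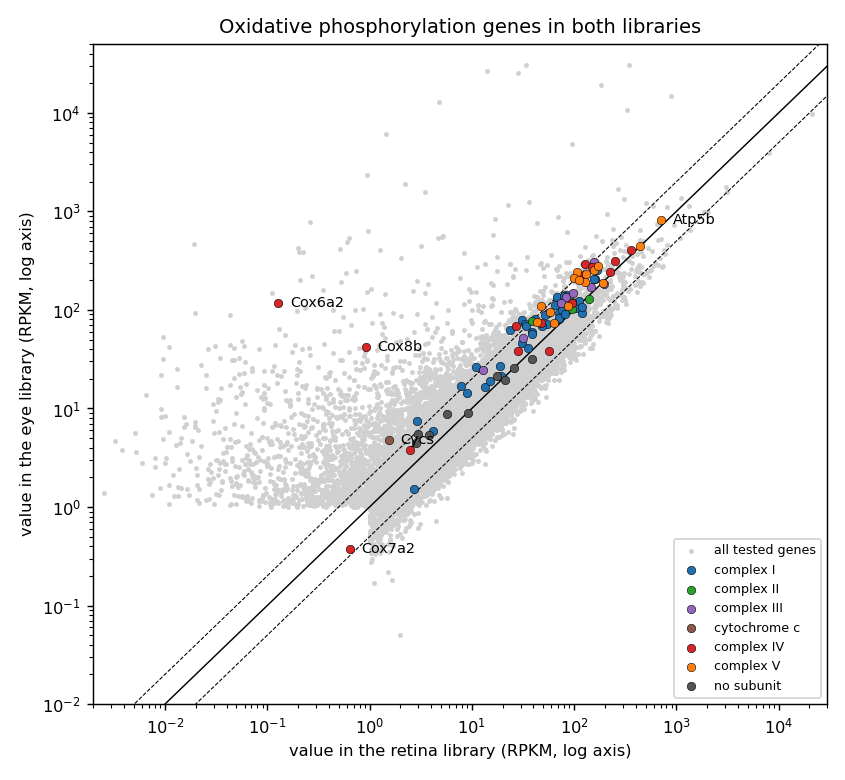
Values of all tested genes and of the oxidative phosphorylation genes in the retina library (horizontal) and the eye library (vertical), in RPKM on log axes, coloured by complex, with genes listed at 0 in a library not drawn and Cox7a2, below the minimum, included. The solid line marks equal values and the dashed lines a 2-fold difference. Most coloured points lie between the equal line and the upper dashed line, while Cox6a2 and Cox8b lie far above it.

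Complex I oxidises NADH and is the largest assembly of the chain. Of its 39 genes, 7 were higher in the eye library and 0 lower, against 17.8% and 7.95% of all tested genes. The share called higher was thus near that of all genes. Of the 39, 35 had their higher value in eye, and the median log2 ratio was 0.51. The most abundant was Ndufa4, at 253 in eye and 169 in retina, whose product was first assigned to complex I and is now counted with complex IV. Next came Ndufb8 (208 and 159) and Ndufb9 (207 and 155), accessory subunits of the membrane arm, with ratios of 1.31 and 1.34.

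The 7 nuclear genes of the catalytic core had a median log2 ratio of 0.17, with a range from -0.35 to 0.79, and none was called. Ndufv1, which carries the flavin where NADH is oxidised, was at 108 in eye and 121 in retina, 1.12-fold in favour of retina (interval 1.08 to 1.16). Ndufs7, an iron-sulfur subunit next to the ubiquinone site, was at 93.3 in eye and 119 in retina, 1.27-fold in favour of retina (interval 1.20 to 1.34). Both stood against the other 5 core genes, whose values were the higher in eye. Among those 5, Ndufs8 (91.6 and 81.4) had a ratio of 1.12, Ndufs1, the largest iron-sulfur subunit, had 1.43, Ndufs3 1.55 and Ndufv2 1.73. With totals that leave out the lens markers, Ndufv1 also had its higher value in eye (log2 0.03), and Ndufs7 did not (-0.15).

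Accessory subunits of complex I, which surround the core, had higher ratios. Among these 32 genes 30 had the higher value in eye and the median log2 ratio was 0.55. All 7 called genes of complex I were in this group. Ndufc1, a membrane arm subunit, was at 62.6 in eye and 23.8 in retina, a ratio of 2.64 (interval 2.39 to 2.91). Ndufa5, of the matrix arm, was at 79.5 and 30.9, with a ratio of 2.57 (2.36 to 2.81). These were the highest ratios among the complex I genes above a value of 10. Of the Ndufb genes all 10 had the higher value in eye, and 3 were called: Ndufb4 (26.6 in eye and 11.1 in retina), Ndufb5 (71.4 and 32.9) and Ndufb6 (68.3 and 33.9), at 2.40-fold, 2.17-fold and 2.02-fold.

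The remaining called genes of complex I were Ndufab1 and Ndufa4l2. Ndufab1, the mitochondrial acyl carrier protein, had 16.9 in eye against 7.77 in retina, 2.17-fold higher. Ndufa4l2, a paralog of Ndufa4 known from hypoxia, was at 7.55 and 2.92, 2.59-fold higher, with 143 retina reads. Ndufa6 (134 and 67.5), at 1.99-fold, and Ndufa1 (81.6 and 41.8), at 1.95-fold, fell just short of the threshold. Ndufa8 was level at 105 in both libraries, and its interval spanned 1. The lowest ratio of the group was that of Ndufa10l1, at 1.53 in eye and 2.72 in retina, a pair of values deposited with few decimals for which no reads were recovered.

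**Figure D2:**
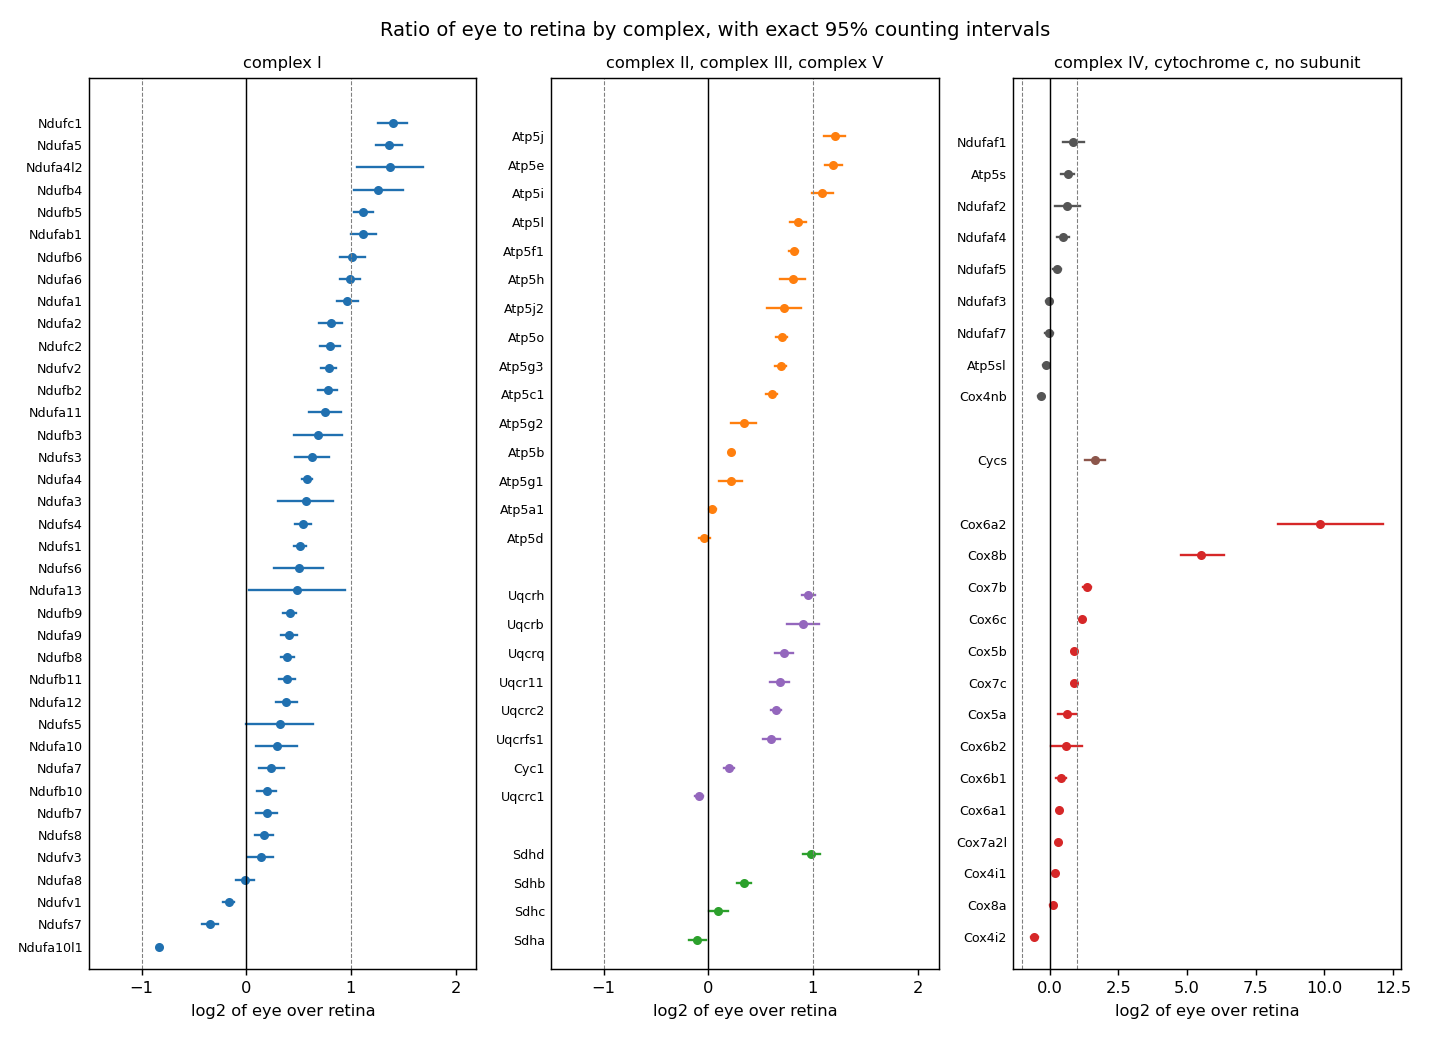
Log2 of the eye value over the retina value for the tested genes, by complex, with exact 95% counting intervals as bars, where the right panel has a wider axis and 1 gene of complex I is not shown. Solid lines mark equal values and dashed lines a 2-fold difference. Ndufv1, Ndufs7, Sdha and Uqcrc1 lie left of the equal line, while most genes, other core genes included, lie right of it. Cox6a2 and Cox8b lie far to the right.

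Complex II, succinate dehydrogenase, is also an enzyme of the tricarboxylic acid cycle. None of its 4 genes was called, and the median log2 ratio was 0.22. Sdha, the flavoprotein that oxidises succinate, had 131 in eye against 140 in retina, 1.08-fold in favour of retina (interval 1.02 to 1.14). With totals that leave out the lens markers its higher value was in eye (log2 0.09). Sdhb, the iron-sulfur subunit, was at 121 and 95.6. The membrane anchors differed from each other. Sdhc was at 102 in eye and 95.1 in retina, while Sdhd was at 77.0 and 38.9, a ratio of 1.98 (1.87 to 2.09) just short of the threshold. All 4 are present in equal numbers in the enzyme, and their retina values spanned 38.9 to 140.

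Complex III moves electrons from ubiquinol to cytochrome c. None of its 8 genes was called, 7 had the higher value in eye, and the median log2 ratio was 0.66. Uqcrc1, a core protein on the matrix side, had 184 in eye against 196 in retina, the only gene of this complex with its higher value in retina, by 1.06-fold (interval 1.04 to 1.09). With totals that leave out the lens markers it too was higher in eye (log2 0.10). Cyc1, the heme-bearing cytochrome c1, was at 169 and 148, and Uqcrfs1, the Rieske iron-sulfur protein, at 147 and 97.1. The small subunits had the higher ratios. Uqcrh, which encodes the acidic hinge protein, stood at 307 and 158 (1.94-fold), and Uqcr11 at 134 and 83.6 (1.60-fold).

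Cycs was low for a gene of an abundant protein, at 4.83 in eye and 1.54 in retina, 3.14-fold higher in eye (interval 2.43 to 4.09) on 163 and 96 reads. The reference gene table names 7 pseudogenes of Cycs. No source used here says how reads that match several copies were counted, so the level of Cycs is uncertain, as are those of Cox7a2 and of Ndufb4, with 7 named pseudogenes. Pseudogenes were named for 44 of the 91 genes. Their median value was 81.7 in eye and 49.6 in retina, against 93.3 and 64.4 for the other 47. Of the 44, 6 had a mean value under 10, and of the 47, 5 did. The part of such copies in these levels was not tested.

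Complex IV, cytochrome c oxidase, reduces oxygen and has several subunits encoded by more than 1 gene. Of its 14 tested genes, 4 were higher in the eye library and 0 lower (background 17.8% and 7.95%), with a median log2 ratio of 0.61. Several general subunit genes were among the most abundant of the list in both libraries. Cox4i1 was at 409 in eye and 358 in retina, Cox6a1 at 313 and 250, and Cox8a at 243 and 224, with ratios of 1.14, 1.25 and 1.08. Cox6b1, the general COX6B gene, was lower, at 38.0 and 28.4, as was Cox5a, a subunit with no isoform pair here, at 73.1 and 47.2. Larger ratios were seen for Cox7c (274 and 149), at 1.83-fold, Cox6c (291 and 127), called at 2.28-fold, and Cox7b (68.9 and 26.9), called at 2.56-fold (interval 2.31 to 2.84).

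The isoforms known from heart and skeletal muscle stood far from the rest. Cox6a2 was at 118 in eye and 0.128 in retina, on 1498 and 3 reads, a ratio of 924 with an interval from 316 to 4486. Cox8b was at 41.9 in eye and 0.920 in retina, on 369 and 15 reads, a ratio of 45.5 (27.2 to 82.2). These were the 2 genes of the 90 that differed at least 4-fold. Of the summed level of both COX6A genes, Cox6a2 made up 27.4% in eye and 0.0513% in retina. For COX8 the share of Cox8b was 14.7% in eye and 0.408% in retina.

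With these isoforms the subunit sums differed more than the general isoforms did. The COX6A sum was 1.73 times as high in eye, against 1.25 for Cox6a1 alone, and the COX8 sum 1.27 times, against 1.08 for Cox8a alone. Muscle transcripts also had their higher value in eye: Ckm, the muscle creatine kinase, had 339 in eye against 2.05 in retina, and Mb, myoglobin, 389 against 0.224. Of the 16 skeletal muscle markers 15 were called higher in eye, with a median log2 ratio of 6.78. Other tissues of the eye went the same way. The median log2 ratio was 8.59 for 5 corneal epithelium markers, 6.24 for 18 lens markers and 3.61 for 6 melanin synthesis markers. With 1 library per tissue, these tissues cannot be told apart as a source of Cox6a2 and Cox8b. The part of muscle RNA in the ratios of the other genes of the chain was not tested.

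Other isoform pairs did not split in this way. Cox4i2, an isoform known from lung and from hypoxia, was at 38.2 in eye and 56.3 in retina, 1.48-fold in favour of retina (interval 1.36 to 1.61). It made up 8.53% of the COX4 sum in eye and 13.6% in retina, and was the only gene of complex IV with its higher value in retina among those tested. Cox6b2, an isoform known from testis, was at 3.77 and 2.49, or 9.04% and 8.04% of the COX6B sum. Cox7a2l, which takes part in joining complexes III and IV, was at 118 and 94.6.

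**Figure D3:**
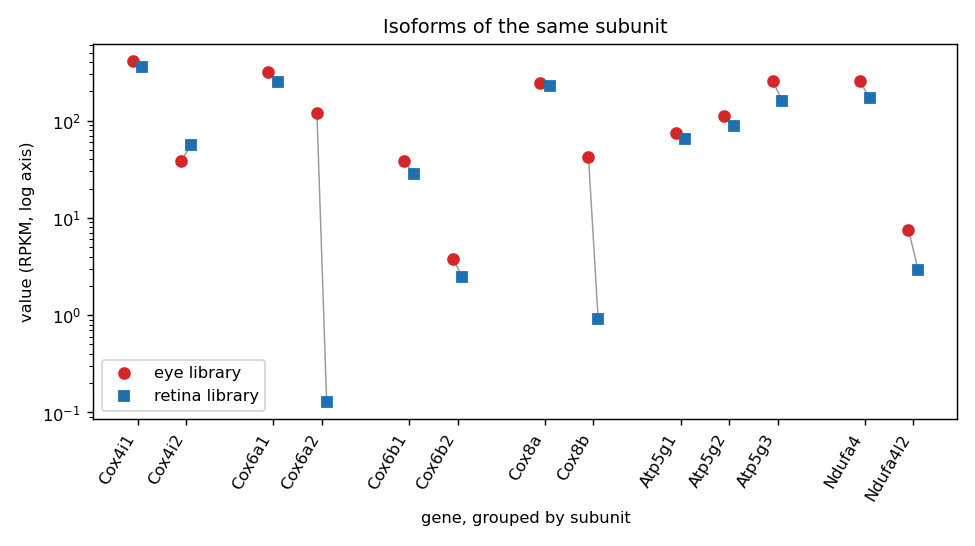
Values of the genes that encode the same subunit, in RPKM on a log axis, with circles for the eye library and squares for the retina library, joined by a line for each gene. Cox6a2 and Cox8b drop from 118 and 41.9 in eye to 0.128 and 0.920 in retina, while the general isoforms Cox6a1 and Cox8a stay close between the libraries.

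The promoters of these muscle isoforms are shown beside that of the general isoform Cox8a, since they had the highest ratios in the oxidative phosphorylation list. Each is 300 bases of the RefSeq assembly GRCr8, from 250 bases before to 50 after the annotated start, written 5′ to 3′ on the strand of the gene. In the first pair capitals mark the E box letters CANNTG, which read the same pattern on both strands and to which the myogenic bHLH factors bind among others. In the promoter of Cox8a capitals mark CCGGAAG, the letters of the ETS family to which GABP belongs. The pair lies on chromosome 1, minus strand, at chr1:192219667-192219966 (Cox6a2) and chr1:205408224-205408523 (Cox8b), and Cox8a at chr1:213833574-213833873 on the same strand.
Cox6a2: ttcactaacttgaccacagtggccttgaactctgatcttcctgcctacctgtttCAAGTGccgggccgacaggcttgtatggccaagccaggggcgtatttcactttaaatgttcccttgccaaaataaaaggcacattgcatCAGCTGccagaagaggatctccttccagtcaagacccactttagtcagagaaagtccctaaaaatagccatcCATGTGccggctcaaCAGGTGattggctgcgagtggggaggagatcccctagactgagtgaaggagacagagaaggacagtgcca
Cox8b: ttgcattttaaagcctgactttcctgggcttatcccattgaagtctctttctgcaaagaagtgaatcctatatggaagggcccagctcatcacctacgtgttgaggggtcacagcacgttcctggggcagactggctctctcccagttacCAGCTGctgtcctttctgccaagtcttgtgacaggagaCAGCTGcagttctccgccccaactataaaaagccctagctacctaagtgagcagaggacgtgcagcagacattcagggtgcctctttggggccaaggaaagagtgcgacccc
Cox8a: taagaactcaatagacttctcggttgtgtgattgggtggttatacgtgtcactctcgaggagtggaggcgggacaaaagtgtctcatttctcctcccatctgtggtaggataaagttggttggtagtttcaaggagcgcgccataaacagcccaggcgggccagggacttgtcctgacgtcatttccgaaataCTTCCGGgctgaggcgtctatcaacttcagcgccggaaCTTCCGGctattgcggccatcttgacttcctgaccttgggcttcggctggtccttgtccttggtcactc

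Cox6a2 held 4 E boxes and Cox8b 2 in this window, and Cox8a held 1, left in lower case above. The letters are common, and Cox7c and Cox7a2l, which were not called, held 3 each. Among all 33469 RefSeq promoters, 72.1% held at least 1 E box, and of the 79 promoters matched to genes of the list 63.3% did. Neither muscle isoform held CCGGAAG, the NRF1 letters GCATGCGC or the YY1 letters AAGATGGCG, on either strand. This is not particular to them, since 44 of the 79 matched promoters held none of these. In complex IV, 4 of 12 promoters held CCGGAAG and 0 held the letters of NRF1 or YY1.

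Complex V makes ATP in its F1 part, which is turned by proton flow through the Fo part. Of its 15 genes, 3 were higher in the eye library and 0 lower (background 17.8% and 7.95%). Of the 15, 14 had the higher value in eye, with a median log2 ratio of 0.70. Atp5b, the catalytic beta subunit, was the most abundant gene of the whole list in both libraries, at 821 in eye and 704 in retina, a ratio of 1.17 (interval 1.15 to 1.18). Atp5a1, the alpha subunit, ranked next in both, at 449 and 437. Atp5d, the delta subunit, was level at 188 and 193, with an interval that spanned 1, and Atp5c1, the gamma subunit, was at 193 and 127 (1.52-fold).

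Atp5e, the small epsilon subunit, was the exception in F1, at 243 in eye against 106 in retina, called at 2.29-fold (interval 2.16 to 2.43). All 10 genes of Fo and of the stalk had the higher value in eye, with a median log2 ratio of 0.76, against 0.22 for the 5 genes of F1. Atp5j, a stalk subunit, was at 111 and 47.8 (2.31-fold) and Atp5i, a small membrane subunit, at 212 and 99.3 (2.13-fold), both called. Atp5o, the stalk subunit that confers sensitivity to oligomycin, was at 277 and 170 (1.63-fold).

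The c subunit of the Fo ring is encoded by 3 genes whose mature proteins are the same. Atp5g3 led in both libraries, at 255 in eye and 158 in retina, followed by Atp5g2 at 110 and 87.0 and Atp5g1 at 74.4 and 64.2. Atp5g3 made up 58.0% of their sum in eye and 51.1% in retina. The ratios of the 3 genes were 1.62, 1.27 and 1.16 in that order.

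Levels within the list kept much the same order in both libraries. Across the 90 tested genes the logarithms of the values in eye and retina had a Pearson correlation of 0.82 (Spearman 0.92), and both libraries share gene models and processing. The first 4 ranks were the same in both, Atp5b, Atp5a1, Cox4i1 and Cox6a1. Genes of complex V had a median value of 202 in eye and 111 in retina, and those of complex I 79.5 and 48.2. Since the values are per length of gene model, they can be compared between genes, with the reservation on shared copies.

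Short genes had higher ratios in these libraries as a whole. Among all tested genes the median log2 ratio was lower in each longer class, from 0.34 for lengths up to 400 bases to 0.30, 0.12, -0.05 and, over 3200 bases, -0.23. The lengths are the smallest that fit the values, and some are a fraction of the true length. The 89 genes of the list with a length were mostly short. In each class that held members their median was above that of all genes, at 0.63 (14 genes), 0.68 (43), 0.41 (23) and 0.46 (9). Across members length and log2 ratio had a Spearman correlation of -0.28, and across all tested genes of -0.18. The part of length in the ratios of the small subunits was not tested.

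**Figure D4:**
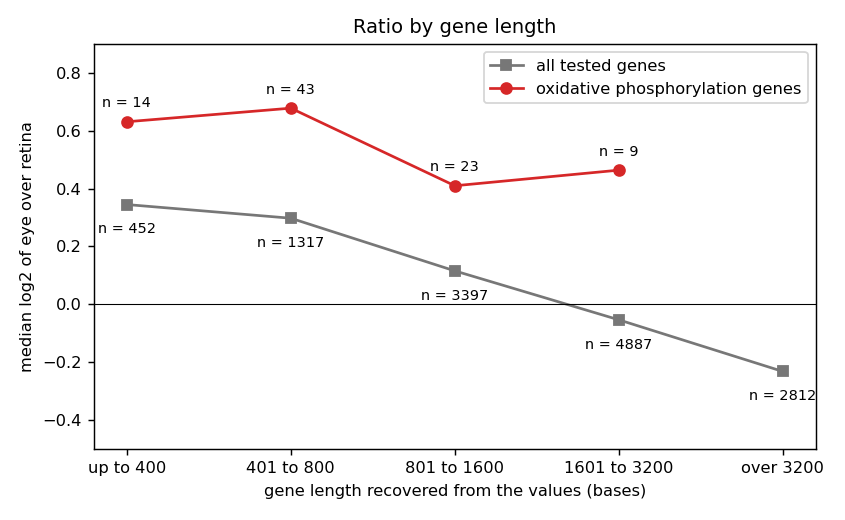
Median log2 of eye over retina by gene length in bases, for all tested genes with recovered reads (squares) and for the oxidative phosphorylation genes (circles), with the number of genes at each point. All tested genes go from 0.34 in the shortest class to -0.23 in the longest, and the circles lie above the squares in the 4 classes that hold members.

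The 9 genes that match the naming rule without encoding a subunit had a median log2 ratio of 0.25, and none was called. Among them are 6 assembly factors of complex I, Ndufaf1, Ndufaf2, Ndufaf3, Ndufaf4, Ndufaf5 and Ndufaf7, with eye values between 5.33 and 25.8. Ndufaf1 was at 5.47 in eye and 3.01 in retina (1.82-fold, interval 1.39 to 2.38), Ndufaf2 at 8.88 and 5.69, Ndufaf4 at 5.33 and 3.84, and Ndufaf5 at 21.1 and 17.7. Ndufaf3 was level, at 25.8 and 26.1, as was Ndufaf7, at 9.04 and 9.20, each with an interval that spanned 1. Atp5s was at 4.44 and 2.82 and Atp5sl at 19.5 and 21.3. Cox4nb, now named Emc8 and part of a membrane insertion complex of the endoplasmic reticulum, was at 31.5 in eye and 38.9 in retina, 1.24-fold in favour of retina (interval 1.14 to 1.34). Its gene lies head to head with Cox4i1, whose ratio was 1.14 in the other direction. No source used here gives the strand setting of the counting, so reads from any overlapping transcripts of this pair cannot be told apart.

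Promoters of nuclear genes of the chain are known to bind NRF1, GABP of the ETS family and YY1. Of the 91 genes, 79 were matched to a promoter in RefSeq (GRCr8). The letters GCATGCGC of NRF1 stood on either strand in 13.9% of them, against 2.47% of all 33469 promoters of the same length. CCGGAAG stood in 27.8%, against 8.75%, and AAGATGGCG, of YY1, in 12.7%, against 1.73%. At least 1 of the 3 was found in 44.3% of the matched genes, against 12.0% of all promoters and 14.7% of those of protein-coding genes. By complex from I to V, the letters of YY1 were in 7 of 35, 0 of 4, 1 of 5, 0 of 12 and 2 of 14 promoters. Those of NRF1 were in 2 of 35, 1 of 4, 1 of 5, 0 of 12 and 4 of 14. These counts are small, and a difference between complexes was not tested. In complexes I and V the YY1 letters began 4 to 36 bases after the annotated start, except in Atp5j, where they began at -111. These letters include ATG, and their overlap with translation starts was not tested. A match is a description of letters and says nothing of binding in these libraries.

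The promoters below were chosen because they hold these letters and belong to genes described above, with capitals for GCATGCGC, CCGGAAG and AAGATGGCG on either strand, where overlapping matches run together. Atp5i (chr14:1464610-1464909, plus strand) and Atp5j (chr11:37375052-37375351, minus strand) were called higher in eye. Atp5o lies at chr11:44657434-44657733 (minus strand). Ndufa6 (chr7:115750268-115750567, minus strand) held all 3 kinds of letters and was just short of the threshold. Ndufs7 (chr7:10110449-10110748, minus strand), not called and with its higher value in retina, held those of YY1 alone, just after the annotated start.
Atp5i: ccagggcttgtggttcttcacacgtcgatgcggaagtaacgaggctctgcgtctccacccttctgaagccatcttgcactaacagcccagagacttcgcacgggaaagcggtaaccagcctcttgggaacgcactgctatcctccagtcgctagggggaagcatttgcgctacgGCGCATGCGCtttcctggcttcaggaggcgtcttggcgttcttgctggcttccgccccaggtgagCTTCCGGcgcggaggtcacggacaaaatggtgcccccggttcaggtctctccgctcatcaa
Atp5j: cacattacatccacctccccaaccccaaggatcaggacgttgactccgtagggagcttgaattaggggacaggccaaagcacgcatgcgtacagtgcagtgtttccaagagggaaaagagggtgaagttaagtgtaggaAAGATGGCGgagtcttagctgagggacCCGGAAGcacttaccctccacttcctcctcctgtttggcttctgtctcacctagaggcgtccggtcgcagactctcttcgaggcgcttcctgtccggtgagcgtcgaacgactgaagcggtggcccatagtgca
Atp5o: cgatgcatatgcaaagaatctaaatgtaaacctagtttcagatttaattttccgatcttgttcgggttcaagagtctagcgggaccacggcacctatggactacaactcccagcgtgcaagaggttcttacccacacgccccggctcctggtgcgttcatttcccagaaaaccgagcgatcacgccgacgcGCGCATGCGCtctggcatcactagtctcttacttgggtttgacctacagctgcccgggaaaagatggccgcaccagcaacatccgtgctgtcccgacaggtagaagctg
Ndufa6: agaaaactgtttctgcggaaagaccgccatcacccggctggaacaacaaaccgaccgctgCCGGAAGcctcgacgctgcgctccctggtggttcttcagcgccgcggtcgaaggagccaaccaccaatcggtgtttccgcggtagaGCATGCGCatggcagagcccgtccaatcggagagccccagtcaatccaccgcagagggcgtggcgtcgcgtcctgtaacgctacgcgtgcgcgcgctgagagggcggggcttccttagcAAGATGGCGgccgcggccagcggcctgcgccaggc
Ndufs7: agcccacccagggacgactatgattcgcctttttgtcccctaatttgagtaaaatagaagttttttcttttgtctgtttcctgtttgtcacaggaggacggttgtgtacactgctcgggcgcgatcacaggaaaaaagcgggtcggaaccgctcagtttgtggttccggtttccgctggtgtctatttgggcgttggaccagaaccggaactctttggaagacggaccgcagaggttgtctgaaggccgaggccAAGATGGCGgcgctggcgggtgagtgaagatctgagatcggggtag

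Other genes around the chain were described from lists. Of 13 genes of the tricarboxylic acid cycle, which feeds NADH and succinate to the chain, 1 was higher in eye and 0 were lower. The background was 17.8% and 7.95%, and the median log2 ratio of the 13 was 0.20. Among the most abundant were Mdh2 (166 in eye and 145 in retina) and Idh3g (105 and 119). Suclg2, the GTP-forming succinyl-CoA ligase subunit, was the called gene, at 43.4 and 14.0 (3.10-fold, interval 2.92 to 3.30). Of 30 further assembly factors none was called, and their median log2 ratio was 0.16. Cox17, a copper chaperone, was at 69.7 and 50.4, Sdhaf1, of complex II, at 50.5 and 59.5, and Surf1, of complex IV, at 32.1 and 39.2. Assembly factors thus had a lower median than the subunits, a difference given as a description. The part of gene length in this difference was not tested.

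Both genes tied to the ATP synthase outside the rule were higher in eye. Atpif1, the inhibitor of its ATP hydrolysis, was at 238 in eye and 90.5 in retina, 2.63-fold higher (interval 2.47 to 2.79). Usmg5, a small subunit of the Fo part, was at 15.3 and 4.28, 3.56-fold higher (2.64 to 4.85). Of 12 genes of ATP exchange and energy buffering, 2 were higher (background 17.8%), both of muscle, Ckm and Ckmt2. Ckmt2 was at 83.8 in the eye library and listed at 0 in that of retina. Ckb, the brain creatine kinase, went the other way, at 402 and 762 (1.89-fold lower in eye), as did its mitochondrial partner Ckmt1b, at 50.7 and 88.4 (1.74-fold), neither called. The ATP carrier gene Slc25a4 was at 644 and 443 and the phosphate carrier gene Slc25a3 at 297 and 211.

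Uncoupling proteins and regulators were mixed. Ucp2 was at 48.1 in eye and 29.2 in retina, Slc25a14 at 7.64 and 8.61 and Slc25a27 at 5.08 and 9.92, none called. Ucp3, known from muscle, was called higher, at 1.89 and 0.0648 on 126 and 8 reads, a ratio of 29.1 (interval 14.3 to 69.0). With 0.1 added to each value its log2 ratio was 3.59. Of 13 regulators of mitochondrial gene expression 0 were higher and 2 lower in eye (background 17.8% and 7.95%), with a median log2 ratio of -0.21. The lower ones were Polrmt, the mitochondrial RNA polymerase, at 8.27 in eye and 18.8 in retina (2.27-fold, interval 2.11 to 2.45), and the coactivator gene Ppargc1b, at 2.86 and 6.07 (2.13-fold, interval 1.85 to 2.45). Yy1 was at 31.3 and 33.5, Nrf1 at 14.5 and 22.5, and Tfam, which packages mitochondrial DNA, at 23.9 and 14.8, none called.

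**Figure D5:**
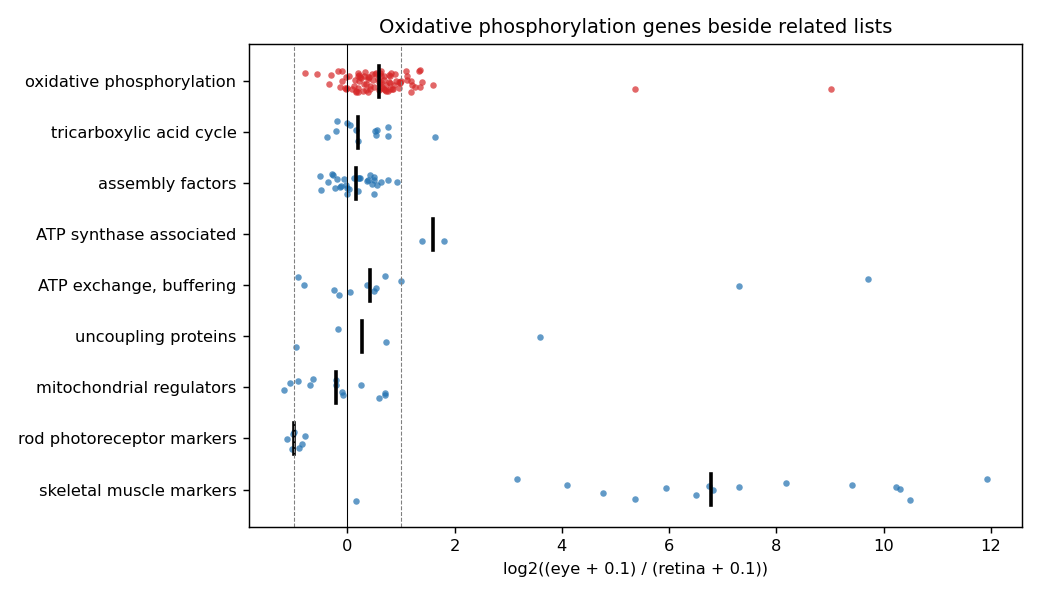
Log2 ratio of eye to retina, with 0.1 added to each value, for each tested gene of the oxidative phosphorylation list and of related lists, with a black bar at each median and dashed lines at a 2-fold difference. The oxidative phosphorylation median (0.58) lies above those of the tricarboxylic acid cycle (0.20) and assembly factors (0.16), and muscle markers lie far to the right.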

How the data were processed

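Eye and retina RNA of rats was sequenced, and reads were aligned with GSNAP and counted with HTSeq on the build rn4, per the submitters' processing notes. The values as deposited by the authors are taken as RPKM, a unit inferred from the values, with 1 column per tissue. No source used here says whether a column joins the technical replicates. Library totals and whole reads were recovered as the smallest that fit both values of a gene, for 13980 of 13980 genes searched. The method was run on simulated data, which does not show that the recovered read numbers are the true ones. Recovered reads added up to 71.4% of the library total in eye, and to 63.7% in retina. Ratios have exact (Clopper-Pearson) 95% intervals from these reads, which are not independent molecules. Log2 ratios used 0.1 added to each value, a minimum of 1 in either library and a 2-fold threshold, in Python 3.11.15 with numpy 2.4.6, pandas 2.3.3 and scipy 1.17.1. Genes were named if called, among the 5 most abundant of a complex, among the 5 highest or lowest ratios at values of at least 10, isoforms of 1 subunit, or caught by name only, and the 3 most abundant and those called stand for each other list. Values of 2 genes that this rule names are not reported here. Genes near the threshold, the remaining core genes of complex I, Mb, Ndufa8, Ndufa10l1, Atp5c1, Cox5a, Cox7a2l and Ckmt1b were chosen after their values were seen. The members and lists were chosen with earlier results of these data known. Promoters come from RefSeq (GRCr8), matched by symbol for 79 of 91 genes. Alternatives covered the added value, minimum, fold, scaling, membership and recovered reads. The last of these and the E box search were added after seeing the data.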

Additional observations from a re-analysis of the deposited data

How the results depend on the processing

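No paired analysis was possible because each tissue has 1 column of values, so the replicate numbers in the labels cannot be matched to values, and the planned count tests and omissions of a replicate were not run for the same reason. The median log2 ratio of the oxidative phosphorylation genes, relative to that of all tested genes, lay between 0.55 and 0.64 in all alternatives run, against 0.59 as reported. The fold does not enter this difference, and a scaling shifts both medians nearly alike, so those settings do not check it. Counts of calls moved with the fold and the scaling. Of all tested genes, 9.07% were higher and 0.0905% lower at 4-fold, and 26.6% and 21.9% at 1.5-fold. The shares were 21.2% and 4.21% with totals that leave out the lens markers, and 11.5% and 31.9% with equal summed values. With 1 added 4.94% were lower, and with a minimum of 5 14.7% were higher. At 4-fold, 2 genes of the list were higher in eye, 0 in complex I, 2 in complex IV and 0 in complex V, with 0 higher in the tricarboxylic acid cycle, 0 higher among genes tied to the ATP synthase and 0 lower among regulators. At 1.5-fold, 44 genes of the list were higher and 1 lower, with 16 higher and 1 lower in complex I, 1 higher in complex II, 6 in complex III, 7 in complex IV, 10 in complex V and 3 among those that are no subunits. At that fold 3 genes of the tricarboxylic acid cycle and 3 assembly factors were higher, 4 genes of exchange and buffering were higher and 2 lower, 2 uncoupling proteins were higher and 1 lower, and 3 regulators were higher and 5 lower. With totals that leave out the lens markers (log2 shift 0.19), 25 genes of the list were higher. They included 1 in complex II, 2 in complex III, 5 in complex V and 1 that is no subunit. Complexes I and IV gained calls too, with Ndufa1 (log2 1.16) and Ndufa6 (1.18) in complex I and Cox5b (1.08) and Cox7c (1.07) in complex IV. In that scaling 1 assembly factor was higher and 0 regulators were lower. With equal summed values (shift -0.64), 2 genes of the list were higher and 2 lower, with 0 higher and 1 lower in complex I, 2 higher and 1 lower in complex IV and 0 higher in complex V. In that scaling 0 genes of the tricarboxylic acid cycle were higher and 1 lower, 2 assembly factors were lower, 1 gene tied to the ATP synthase was higher, 2 genes of exchange and buffering, 1 uncoupling protein and 5 regulators were lower. With 1 added to each value 1 regulator was lower, and with a minimum of 5 the uncoupling proteins had 0 higher and a relative median of -0.11. Leaving out the genes that are no subunits, or using recovered reads, left 15 higher and 0 lower. The former could not change the calls, since none of those genes was called. The latter could hardly do so, since the reads were derived from the same values. The 3 reads of Cox6a2 and 15 of Cox8b in retina limit the precision of those ratios.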
